A study of Mus musculus with 9 samples.

Results

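The genes described are 46 interferon-stimulated antiviral genes, a set named by symbol. Of these, 44 were among the 30142 genes measured by a transcript cluster (the array's unit for 1 value) with a single gene symbol. Where a gene had several such clusters, the one with the highest mean over the 9 arrays stood for it. Total RNA of whole neck skin from male C57BL/6 mice aged 6 to 8 weeks was hybridised to Affymetrix arrays, 3 biological replicates per group. Urushiol, the allergen of poison ivy, or oxazolone, a synthetic contact allergen, was used at 2.0% on the shaved abdomen to sensitise the mice and at 0.5% in acetone, 40 µl a time, on the shaved nape from 5 days later. The nape was challenged 5 times up to day 8, and skin was taken 4 hours after the final challenge. Control skin is labelled healthy, and the treatment text, shared by all samples, does not say what the control mice received, so shaving, solvent and allergen cannot be told apart in comparisons with control. Values are deposited log2 levels, the error after a difference is its limma standard error (n = 3 arrays per group), and a gene was said to rise or fall where limma's adjusted p was under 0.05.

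Interferon-stimulated genes are switched on when an interferon binds its receptor at the cell surface. Type I and type III interferons act through the kinases Jak1 and Tyk2 and the factor ISGF3, which includes Stat2 and Irf9 and binds a DNA element called ISRE. Interferon gamma, a product of T cells and natural killer cells, acts through Jak1 and Jak2 and a DNA element called GAS, and it induces Irf1, which in turn binds ISRE-like sites. The proteins made detect viral nucleic acid, degrade RNA, block translation or hold virus particles at the membrane, and in skin these genes are widely used as a readout of interferon signalling. Of the 2 members not measured, Ifi44 had no cluster with a single symbol in the tables used here, and Ifi47 was present only in a cluster that also carries Olfr56.

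The letters of both elements can be read before the start sites of members. Promoter windows of 300 bases (250 before the start and 50 after it, RefSeq, GRCm38.p6) were matched for 35 of the 46 members. The ISRE core (GAAA, any 2 bases, GAAA), searched on both strands, was present in 15 of these 35 genes (42.9%), against 3.99% of the 27025 genes of the promoter table. The GAS core TTCNNNGAA, which reads the same on both strands as a pattern, was present in 9 of 35 (25.7%), against 9.55% of all, and it overlapped an ISRE core in 2 members. Printed here are the stretches upstream of the start for the 4 members with the highest oxazolone differences among those with an ISRE core, and that of Irf1, chosen with its values known because its GAS core is the classic interferon gamma element. Capitals mark the ISRE core, read on either strand, in the first 4 and the GAS core in Irf1.
Ifit1, chr19:34640760-34640838, plus strand: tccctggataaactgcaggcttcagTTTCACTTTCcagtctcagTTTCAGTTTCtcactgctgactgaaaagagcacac
Rsad2, chr12:26456538-26456597, minus strand: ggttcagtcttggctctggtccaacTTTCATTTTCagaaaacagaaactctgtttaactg
Oas1a, chr5:120907526-120907570, minus strand: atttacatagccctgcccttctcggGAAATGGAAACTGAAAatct
Oas1g, chr5:120887614-120887656, minus strand: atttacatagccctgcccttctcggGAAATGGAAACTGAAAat
Irf1, chr11:53769899-53769957, plus strand: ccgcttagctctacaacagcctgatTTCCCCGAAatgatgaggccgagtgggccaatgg
The Oas1a and Oas1g stretches share their first 43 bases, with overlapping cores at the same place, and Ifit1 holds its cores side by side. A match is a description of letters and not evidence of binding.

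One control array stood apart. Control array 3 correlated with the other 2 control arrays at 0.978 and 0.979 over all genes, against 0.995 between those 2. With the challenged arrays it correlated at 0.969 to 0.978, and control arrays 1 and 2 at 0.927 to 0.952. Its mean of 8 skeletal muscle markers was 16.33, against 18.33 and 18.26 on control arrays 1 and 2. In hair follicle markers control array 3 was like the challenged arrays. The mean of 7 such markers was 12.16 to 12.98 on the urushiol arrays, 12.90 to 15.58 on the oxazolone arrays and 6.01, 6.24 and 13.56 on control arrays 1, 2 and 3. Against control the median difference of these markers was 4.74 with urushiol and 6.33 with oxazolone, and 0 of 7 passed by limma in either comparison (1 with urushiol and 6 with oxazolone at an unadjusted p under 0.05). The part of this difference in the members' values was not tested. Over the 44 members control array 3 differed from the mean of the other 2 control arrays by a median of -0.02 (from -0.80 to 0.58), and each comparison gives its count without it.

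In oxazolone-challenged skin the set rose almost as a whole. Against control skin 37 of the 44 genes rose and 0 fell by limma, where 9.63% of all genes tested rose and 6.92% fell. The median difference was 2.70 log2 units, or 6.48-fold on this scale, against 0.06 for all genes, and 28 genes lay past 4-fold and 7 past 16-fold. All 44 differences were above 0, and for 43 genes every oxazolone array lay above every control array, as it did for 21.3% of all genes. The 37 genes that rose ranged from Isg20 (0.67 ± 0.14) to Ifit1 (6.66 ± 0.65). The count was 34 without control array 3 and 28 without control array 1 or control array 2. Of all 30142 genes, 4749 rose without control array 3, 1102 without control array 1 and 1153 without control array 2. In the main fit 2904 did. With only the oxazolone and control arrays fitted 23 rose, as did 4.19% of all genes in that fit.

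In urushiol-challenged skin the differences from control were small and of both signs. None of the 44 genes rose or fell by limma, where 9.96% of all genes rose and 6.43% fell, and 1 gene, Trim25, had an unadjusted p under 0.05. The median difference was 0.21, against 0.04 for all genes, with 32 genes above 0 and 12 below, between -0.79 (Usp18) and 1.17 (Trim25). For 19 genes all urushiol arrays lay above all control arrays (21.1% of all genes did so), for 6 they lay below (11.8% of all genes) and for 19 the groups overlapped. Without control array 3 the count of members that rose or fell was also 0, where 4566 of all 30142 genes rose and 3089 fell. With the urushiol and control arrays fitted by themselves 9 members rose (4.81% of all genes in that fit) and 1 fell (2.90% of all genes).

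**Figure D1:**
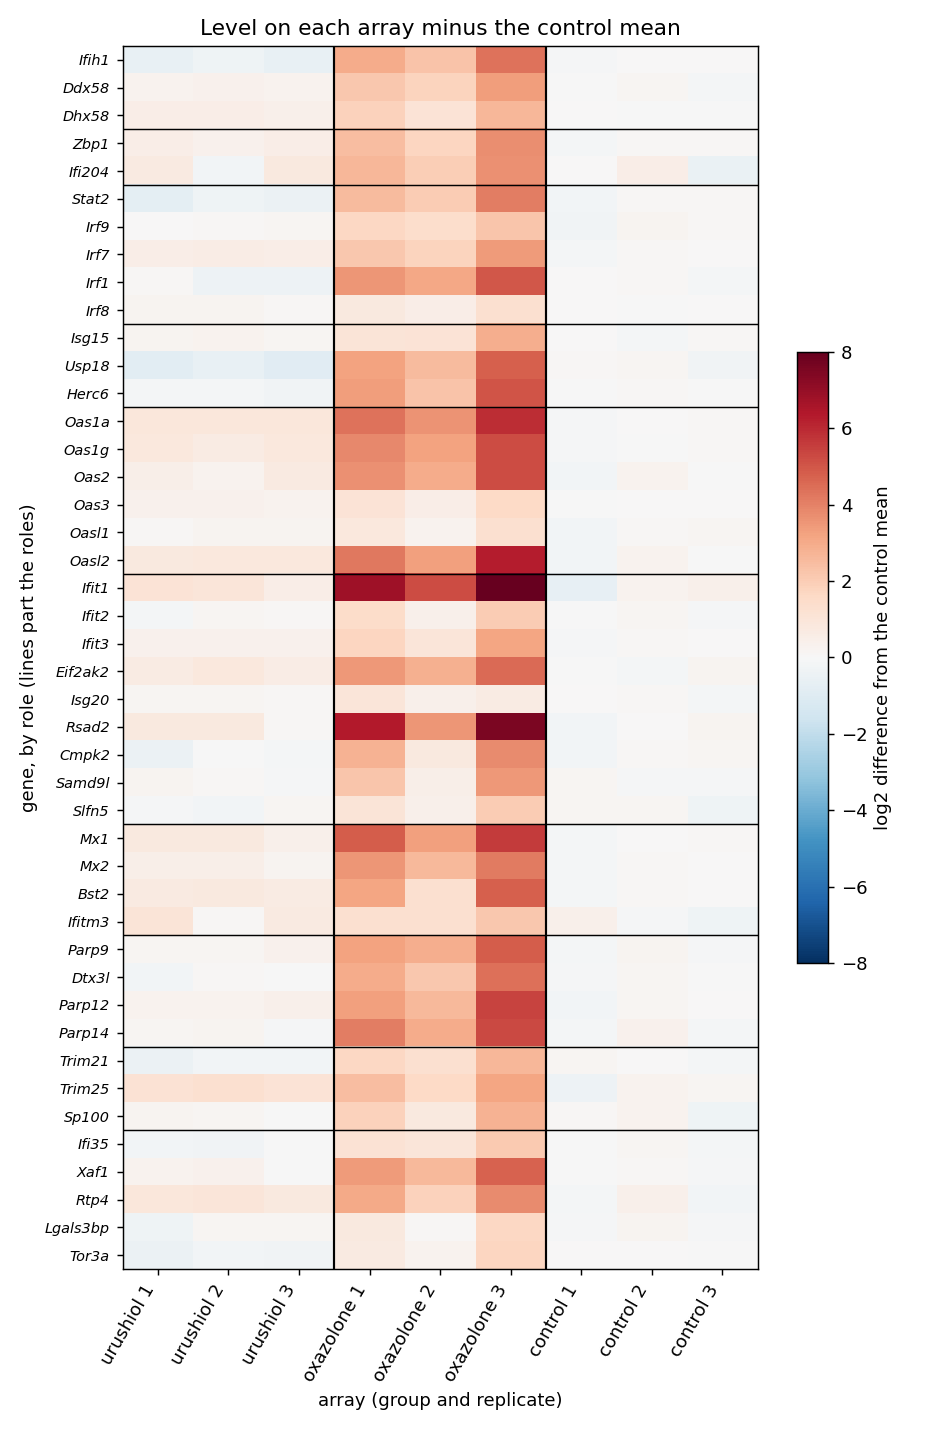
Level of each of the 44 measured genes on each array minus the gene's control mean, in log2 units, with genes in rows by role and arrays in columns (urushiol, oxazolone, control). The oxazolone columns are above 0 throughout, in 43 of 44 genes deepest on array 3 and in 43 palest on array 2, while the urushiol columns run from -0.79 to 1.17 as group means.

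Among sensors of viral RNA, all 3 rose with oxazolone. Ifih1, which encodes the long double-stranded RNA sensor MDA5, stood at 8.56, 8.83 and 8.54 on the urushiol arrays, at 12.14, 11.43 and 13.52 on the oxazolone arrays and at 9.05, 9.21 and 9.21 on the control arrays. The oxazolone arrays were far above both other groups and the urushiol arrays lay just below every control array. The urushiol difference of Ifih1 was -0.51 ± 0.47 (limma adjusted p = 0.509) and the oxazolone difference 3.21 ± 0.47 (limma adjusted p = 0.00673). Ddx58, the RIG-I gene, and Dhx58, the LGP2 gene, rose with oxazolone by 2.43 ± 0.37 and 1.87 ± 0.35. Both sensors of DNA or Z-form nucleic acid rose with oxazolone too. Ifi204, a DNA-binding protein gene, had 12.80, 11.90 and 12.86 on the urushiol arrays, 14.78, 14.04 and 15.75 on the oxazolone arrays and 12.14, 12.60 and 11.57 on the control arrays. With oxazolone it rose by 2.75 ± 0.49 (limma adjusted p = 0.0133), while urushiol and control overlapped. It has close paralogs, whose transcripts the probes may not separate. Zbp1, which can trigger necroptosis, had 7.14, 6.97 and 7.14 on the urushiol arrays, 9.12, 8.36 and 10.37 on the oxazolone arrays and 6.47, 6.72 and 6.74 on the control arrays. Its 3 groups were apart, at 0.44 ± 0.45 with urushiol (limma adjusted p = 0.56) and 2.64 ± 0.45 with oxazolone (limma adjusted p = 0.0112).

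The transcription factors of the pathway rose with oxazolone, 5 of 5 measured members. Irf1, the interferon gamma-induced activator, stood at 7.37, 6.87 and 6.85 on the urushiol arrays, at 10.82, 10.34 and 12.22 on the oxazolone arrays and at 7.29, 7.38 and 7.11 on the control arrays. Its oxazolone difference was 3.87 ± 0.44 (limma adjusted p = 0.00305), the highest of the 5, and the urushiol and control arrays overlapped. A second Irf1 cluster, dimmer on average, gave 0.72 ± 0.25 with oxazolone (limma adjusted p = 0.0918), so the 2 clusters of this gene do not give the same size or the same call. Stat2, a subunit of ISGF3, had 7.61, 8.07 and 7.95 on the urushiol arrays, 10.93, 10.46 and 12.51 on the oxazolone arrays and 8.19, 8.50 and 8.53 on the control arrays. It rose with oxazolone by 2.89 ± 0.48 (limma adjusted p = 0.0108), while its urushiol arrays were all below the lowest control array, at -0.53 ± 0.48 (limma adjusted p = 0.51). Irf9, the DNA-binding subunit of ISGF3, had 7.62, 7.65 and 7.73 on the urushiol arrays, 9.26, 8.99 and 9.81 on the oxazolone arrays and 7.28, 7.78 and 7.69 on the control arrays, a tight oxazolone rise of 1.77 ± 0.22 (limma adjusted p = 0.0038).

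Irf7, the amplifier of interferon alpha genes, had 7.01, 7.06 and 6.99 on the urushiol arrays, 8.63, 8.22 and 9.85 on the oxazolone arrays and 6.31, 6.55 and 6.49 on the control arrays. The 3 groups did not overlap, with urushiol in between: the urushiol difference was 0.57 ± 0.37 (limma adjusted p = 0.345) and the oxazolone difference 2.45 ± 0.37 (limma adjusted p = 0.00778). Irf8, a factor of myeloid cells, rose with oxazolone by 0.87 ± 0.18, the smallest rise among these factors.

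The ISG15 system attaches the ubiquitin-like protein ISG15 to other proteins and takes it off again. Isg15 had 5.87, 5.93 and 5.84 on the urushiol arrays, 6.73, 6.77 and 8.59 on the oxazolone arrays and 5.70, 5.55 and 5.80 on the control arrays. On oxazolone array 3 it was far above the other oxazolone arrays, and limma's adjusted p of 0.0492 for the rise of 1.68 ± 0.46 is just under the threshold. Usp18, the protease that removes ISG15 and damps the type I interferon receptor, had 6.78, 7.07 and 6.73 on the urushiol arrays, 10.86, 10.16 and 12.40 on the oxazolone arrays and 7.75, 7.82 and 7.37 on the control arrays. It rose with oxazolone by 3.49 ± 0.51 (limma adjusted p = 0.00695), and with urushiol every array was below every control array, at -0.79 ± 0.51 (limma adjusted p = 0.345). Herc6, the mouse ISG15 ligase, stood at 7.83, 7.82 and 7.70 on the urushiol arrays, 11.36, 10.29 and 13.04 on the oxazolone arrays and 7.96, 8.11 and 7.94 on the control arrays, with an oxazolone rise of 3.56 ± 0.60 (limma adjusted p = 0.0112). With urushiol none of the 3 genes of this system passed.

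The 2-5A synthetase family is named for enzymes that make the small messenger that activates RNase L, and it also holds synthetase-like genes. Of its 6 measured genes 5 rose with oxazolone, by 1.08 ± 0.23 (Oas3) to 4.61 (Oas1a and Oasl2). Oas1a had 7.36, 7.37 and 7.37 on the urushiol arrays, 10.80, 10.05 and 12.41 on the oxazolone arrays and 6.39, 6.49 and 6.55 on the control arrays. Its oxazolone difference of 4.61 ± 0.52 is 24.4-fold (limma adjusted p = 0.0029), and its urushiol arrays lay close together above every control array at 0.89 ± 0.52 (limma adjusted p = 0.294). Oasl2, a synthetase-like gene, had 7.12, 7.18 and 7.18 on the urushiol arrays, 10.55, 9.67 and 12.67 on the oxazolone arrays and 6.15, 6.62 and 6.30 on the control arrays. Here too the 3 groups were apart, with urushiol at 0.80 ± 0.67 (limma adjusted p = 0.47) and oxazolone at 4.61 ± 0.67 over control (limma adjusted p = 0.00691). Oas1g and Oas2 rose with oxazolone by 4.10 ± 0.45 and 3.94 ± 0.52, while Oasl1, at 0.81 ± 0.23, did not pass (limma adjusted p = 0.0537). Oas1a and Oas1g are near copies, so their clusters may read the same transcripts.

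The effectors that act on RNA, translation or nucleotides held the 2 members with the highest oxazolone differences and also 4 of the 7 that did not pass. Ifit1, which binds viral RNA lacking a host cap, had 7.55, 7.42 and 6.99 on the urushiol arrays, 13.24, 11.71 and 14.46 on the oxazolone arrays and 5.84, 6.73 and 6.86 on the control arrays. The oxazolone difference of 6.66 ± 0.65 is 101-fold (95% interval 5.12 to 8.20 log2 units, limma adjusted p = 0.00183), and urushiol stood at 0.84 ± 0.65 (limma adjusted p = 0.432). Rsad2, which encodes viperin, an enzyme that makes a chain-terminating nucleotide, had 7.26, 7.26 and 6.61 on the urushiol arrays, 12.86, 10.01 and 14.01 on the oxazolone arrays and 6.25, 6.55 and 6.71 on the control arrays. Its oxazolone difference was 5.79 ± 0.91 (limma adjusted p = 0.00879), with the widest spread of all members over the oxazolone arrays (SD 2.06), and its urushiol arrays overlapped control.

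Eif2ak2, the translation-blocking kinase PKR, rose with oxazolone by 3.60 ± 0.38, Ifit3 by 1.94 ± 0.48 and the exonuclease gene Isg20 by 0.67 ± 0.14. Cmpk2, the gene of a mitochondrial nucleotide kinase, stood at 2.43 ± 0.67 (limma adjusted p = 0.0501), Samd9l at 2.05 ± 0.66, Ifit2 at 1.30 ± 0.38 and Slfn5 at 1.15 ± 0.39, and these 4 did not pass. On oxazolone array 2 Cmpk2 and Samd9l were at 7.10 and 8.60, barely above the highest control values of 6.48 and 8.31.

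Of the genes acting on virus entry, traffic and release, 4 of 4 rose with oxazolone. Mx1, a dynamin-like GTPase that blocks incoming virus, had 6.05, 6.05 and 5.68 on the urushiol arrays, 10.14, 8.57 and 10.88 on the oxazolone arrays and 5.17, 5.34 and 5.40 on the control arrays. It rose with oxazolone by 4.56 ± 0.52 (limma adjusted p = 0.00293), and urushiol lay just above control at 0.62 ± 0.52 (limma adjusted p = 0.468). Below the array median (5.53 to 5.55) on all 3 control arrays were 3 members, Mx1, Oas3 and Oasl1. As background, C57BL/6 mice carry an Mx1 allele that makes no working protein. Mx2, its relative, rose with oxazolone by 3.43 ± 0.36 and Ifitm3, which blocks membrane fusion, by 1.57 ± 0.33. Bst2, whose protein tethers budding virus, had 9.94, 9.99 and 9.86 on the urushiol arrays, 12.37, 10.52 and 13.97 on the oxazolone arrays and 9.05, 9.32 and 9.28 on the control arrays. Its oxazolone arrays were spread over more than 3 log2 units, all above the tight urushiol arrays, at 0.71 ± 0.75 with urushiol (limma adjusted p = 0.576) and 3.07 ± 0.75 with oxazolone (limma adjusted p = 0.0344).

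The ADP-ribosyltransferases and their ubiquitin ligase partner rose with oxazolone as a close group, 4 of 4, between 3.18 ± 0.50 and 4.11 ± 0.52. Parp14, the member with the highest difference, had 8.65, 8.70 and 8.43 on the urushiol arrays, 12.58, 11.47 and 13.80 on the oxazolone arrays and 8.34, 8.83 and 8.34 on the control arrays. Urushiol and control overlapped for it (0.09 ± 0.52), and the oxazolone arrays were above both (limma adjusted p = 0.00422). Parp12 had 9.29, 9.31 and 9.41 on the urushiol arrays, 12.27, 11.60 and 14.42 on the oxazolone arrays and 8.75, 9.18 and 9.06 on the control arrays. It rose with oxazolone by 3.77 ± 0.64 (limma adjusted p = 0.0117), and its urushiol arrays lay narrowly above control at 0.34 ± 0.64 (limma adjusted p = 0.778). Parp9 rose with oxazolone by 3.66 ± 0.45 and Dtx3l, which pairs with Parp9, by 3.18 ± 0.50.

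Trim25, the ubiquitin ligase that activates RIG-I, was the member with the highest urushiol difference. It had 9.78, 9.89 and 9.75 on the urushiol arrays, 11.10, 10.23 and 11.77 on the oxazolone arrays and 8.24, 8.89 and 8.77 on the control arrays. It rose with oxazolone by 2.40 ± 0.37 (limma adjusted p = 0.0081), and urushiol stood at 1.17 ± 0.37, with a 95% interval of 0.31 to 2.04 (limma adjusted p = 0.0722). Trim21, a cytosolic antibody receptor, had 6.14, 6.33 and 6.38 on the urushiol arrays, 8.24, 7.84 and 9.26 on the oxazolone arrays and 6.71, 6.59 and 6.43 on the control arrays. With oxazolone it rose by 1.87 ± 0.33 (limma adjusted p = 0.0126), and its urushiol arrays were just below every control array (-0.29 ± 0.33, limma adjusted p = 0.602). Sp100, a nuclear body protein gene, rose with oxazolone by 1.79 ± 0.45.

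Of the other interferon-induced genes, 3 of 5 rose with oxazolone. Xaf1, a pro-apoptotic gene, had 8.12, 8.20 and 7.86 on the urushiol arrays, 11.28, 10.49 and 12.57 on the oxazolone arrays and 7.86, 7.97 and 7.79 on the control arrays. Its oxazolone rise of 3.57 ± 0.46 (limma adjusted p = 0.00447) was the highest of the 5, and urushiol overlapped control. Rtp4, a receptor chaperone gene, had 6.67, 6.70 and 6.51 on the urushiol arrays, 8.78, 7.60 and 9.56 on the oxazolone arrays and 5.59, 6.14 and 5.51 on the control arrays. Its 3 groups were apart, at 0.88 ± 0.45 with urushiol (limma adjusted p = 0.234) and 2.90 ± 0.45 with oxazolone (limma adjusted p = 0.00869), and Ifi35 rose with oxazolone by 1.42 ± 0.28. Tor3a (0.91 ± 0.33) and Lgals3bp (0.85 ± 0.37) did not pass, at limma adjusted p = 0.101 and 0.156. Lgals3bp was the only member whose oxazolone arrays (8.84, 8.11 and 9.71) overlapped its control arrays (7.94, 8.23 and 7.93).

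**Figure D2:**
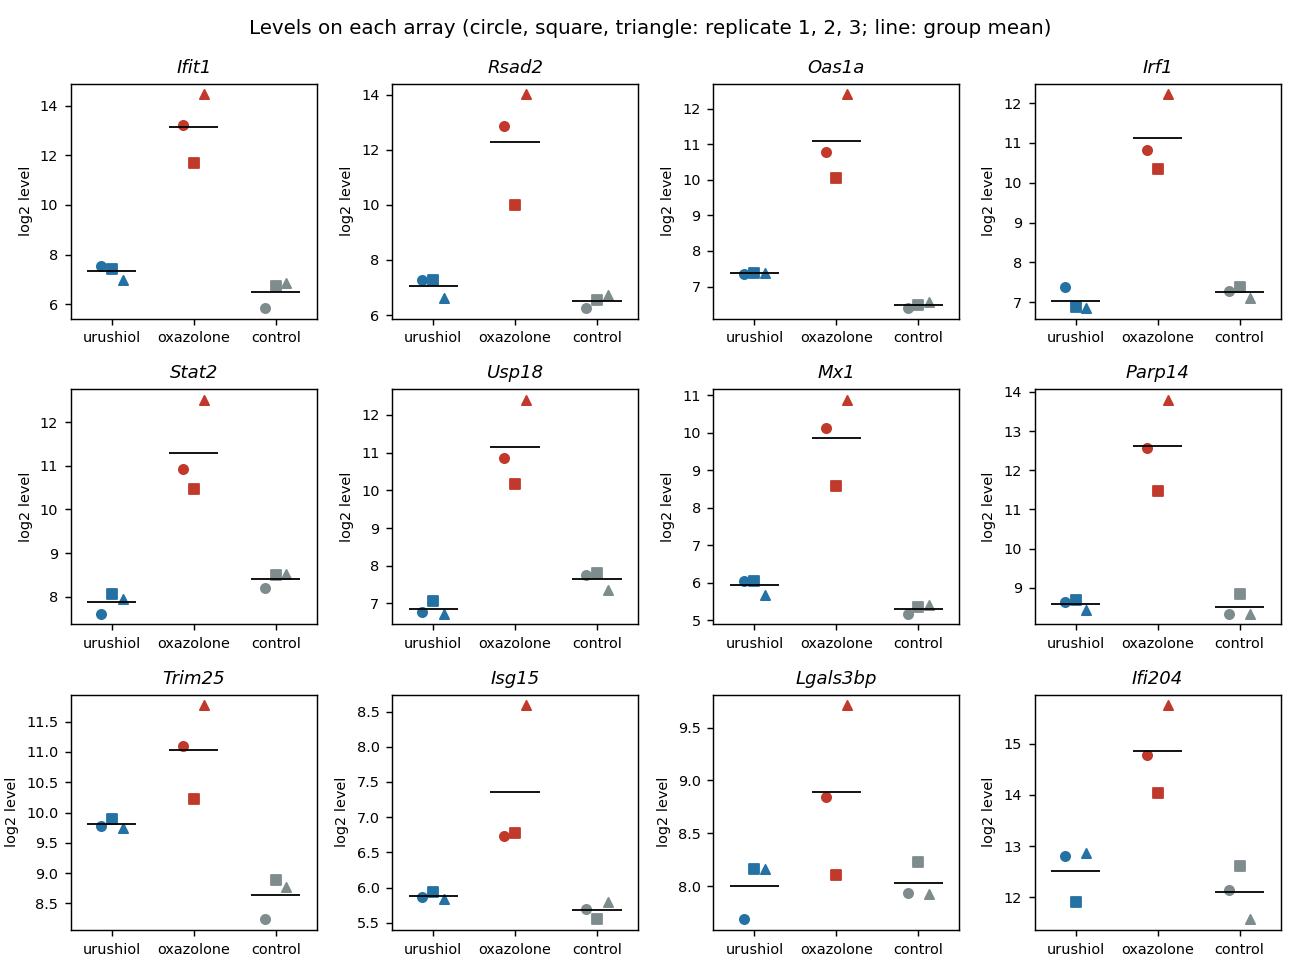
Deposited log2 levels of 12 members on each array, by group (urushiol, oxazolone, control), with symbols for the replicate number and a line at the group mean. Ifit1 reaches 14.46 on oxazolone array 3 against at most 7.55 on any urushiol array, Usp18 and Stat2 lie below control with urushiol, and Trim25 lies between control and oxazolone.

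With urushiol, the members fell into patterns that the tests did not call. Those with all urushiol and all oxazolone arrays above all control arrays were 19 (16.7% of all genes had this pattern). Among them were Ddx58, Dhx58, Irf7, 4 of the 6 genes of the synthetase family, Ifit1, Eif2ak2, Mx1, Mx2, Bst2, Trim25 and Rtp4. Those with oxazolone above and urushiol below every control array were 6, namely Ifih1, Stat2, Usp18, Herc6, Trim21 and Tor3a. This joint pattern was held by 0.126% of all genes, but for urushiol below control by itself 6 of 44 members is close to the 11.8% of all genes. The limma standard errors are shared by all groups and include the wide oxazolone spread. The median SD of members was 0.13 over the urushiol arrays, 1.01 over the oxazolone arrays and 0.15 over the control arrays, against 0.10, 0.11 and 0.13 for all genes. When urushiol and control were fitted by themselves, 9 members rose with urushiol by limma (adjusted p from 0.00404 to 0.0423), namely Trim25 (1.17 ± 0.19), Oas1a (0.89 ± 0.05), Oasl2 (0.80 ± 0.13), Oas1g (0.79 ± 0.08), Bst2 (0.71 ± 0.09), Eif2ak2 (0.69 ± 0.12), Irf7 (0.57 ± 0.07), Dhx58 (0.47 ± 0.04) and Oas3 (0.33 ± 0.03). Ifih1 fell in that fit (-0.51 ± 0.10), with a limma adjusted p that is under the threshold and rounds to 0.05. Of all genes in the same fit 4.81% rose and 2.90% fell. In the fit of all 9 arrays, 95% intervals of the urushiol differences ran from -1.99 to 2.68 over the members and stayed below 1 for 15 of them, so a change of 2-fold is within the interval of most.

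**Figure D3:**
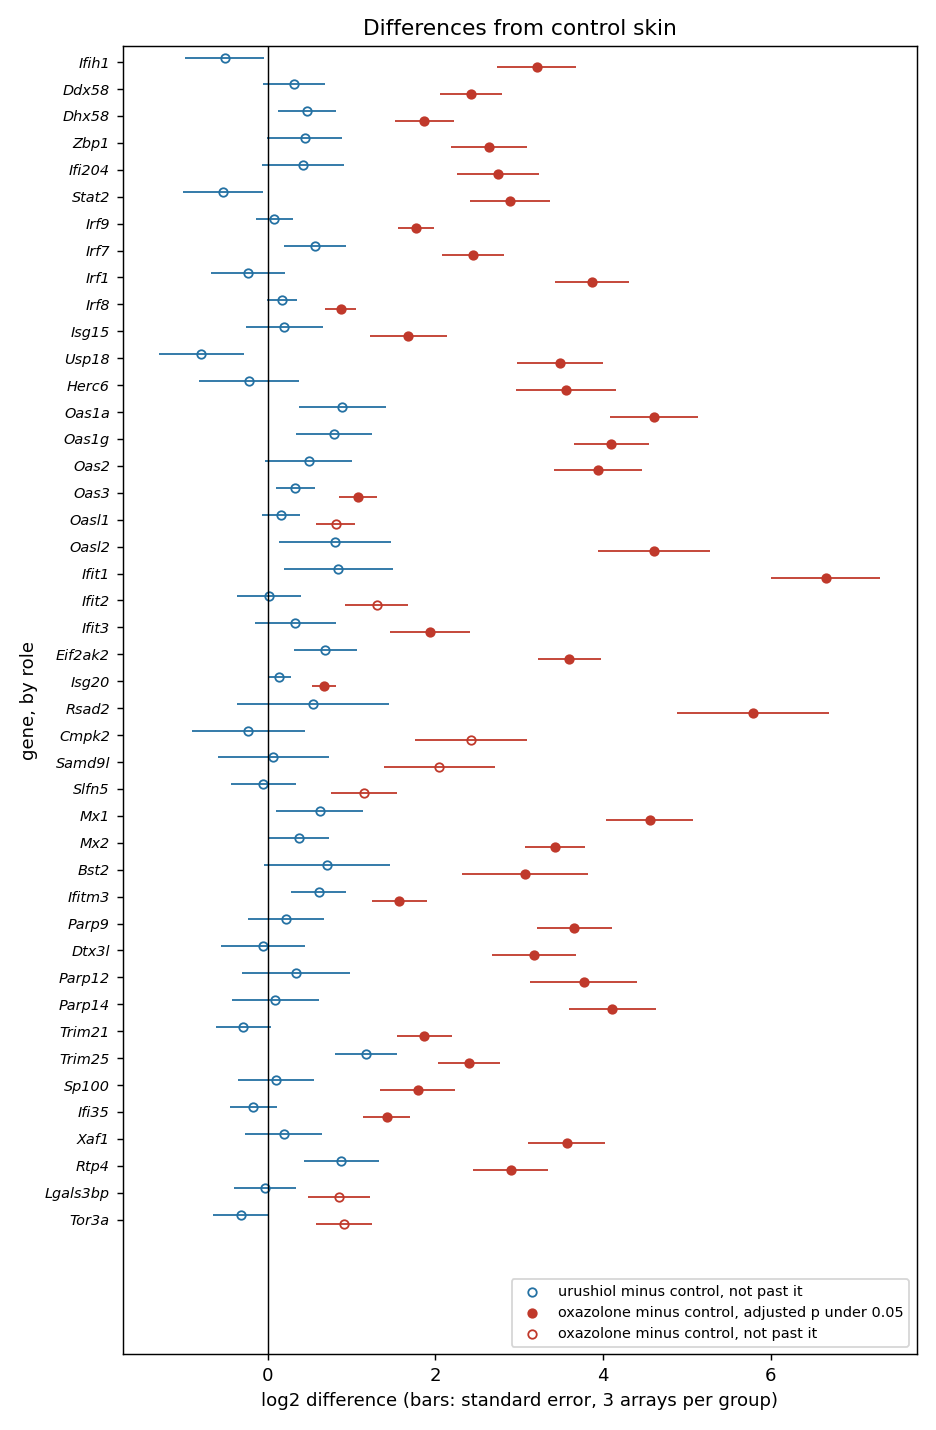
Log2 difference from control of each of the 44 members, with bars of 1 standard error from limma (3 arrays per group) and filled symbols for an adjusted p under 0.05. All 37 filled symbols belong to oxazolone, from 0.67 to 6.66, and the urushiol symbols spread on both sides of 0.

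Set against each other, urushiol-challenged skin was lower than oxazolone-challenged skin for 44 of 44 members, with a median difference of -2.27 against 0.00 for all genes. No member passed by limma, where 0.00995% of all genes were called lower (Gbp2, Rgs16 and Stat4) and 0.00664% higher (Pcdhb17 and Smpd1), 5 genes named here after their values were seen. The lowest adjusted p of a member was 0.0767 and the highest 0.847. At an unadjusted p under 0.05, 44 of 44 members were lower, as were 3.08% of all genes, and for 43 members every urushiol array lay below every oxazolone array, as for 4.39% of all genes (the urushiol arrays were all higher for 5.35% of all genes and for 0 members). Of the 30 genes lower at an adjusted p under 0.1 (0.0995% of all), 10 were members. Among the 100 genes with the deepest urushiol minus oxazolone differences 25 were members.

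By size, Ifit1 differed by -5.82 ± 0.65 (95% interval -7.35 to -4.28), Rsad2 by -5.25 ± 0.91 and Usp18 by -4.28 ± 0.51. Irf1 differed by -4.10 ± 0.44, Parp14 by -4.02 ± 0.52 and Mx1 by -3.94 ± 0.52. Limma's adjusted p was 0.0767 for both Ifit1 and Irf1, 0.0822 for Usp18, 0.0991 for Parp14, 0.0997 for Mx1 and 0.21 for Rsad2. The second, dimmer Irf1 cluster differed by only -0.70 ± 0.25 (limma adjusted p = 0.742). Stat2, Irf9, Irf7 and Isg15 differed by -3.42 ± 0.48, -1.69 ± 0.22, -1.88 ± 0.37 and -1.48 ± 0.46. In every role the median difference was below 0, with values between -1.59 (other interferon-induced genes) and -3.78 (ISG15 system). Calls appeared when 1 oxazolone array was left out: without array 2 and without array 3, 23 members each were lower by limma, as were 0.302% and 0.186% of all genes in those fits, and without any other single array 0 were. The fits above are unpaired. In an alternative fit with the replicate number as a block, which treats equal numbers as pairs, 0 members passed, as did 0 of all genes.

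**Figure D4:**
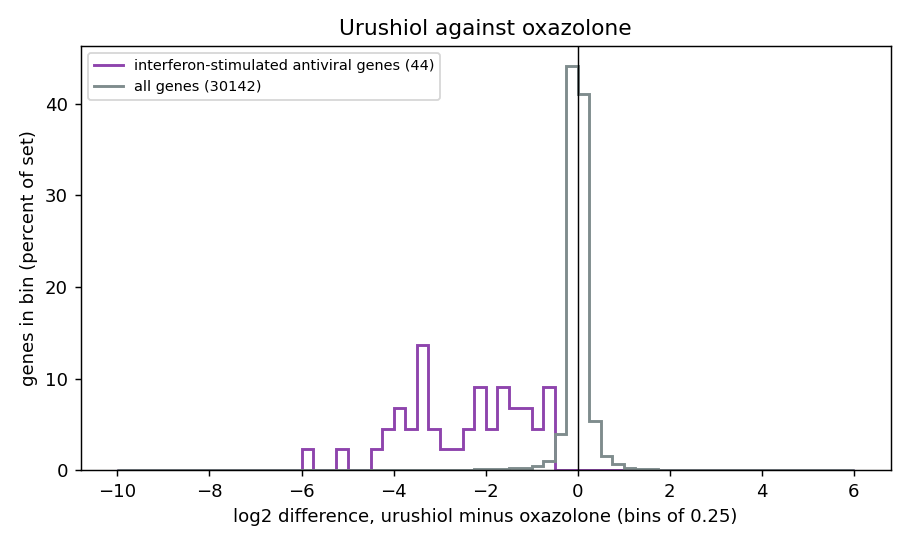
Distribution of the log2 difference urushiol minus oxazolone, in bins of 0.25, as a percent of the 44 members and of all 30142 genes. All genes peak at 0, and the members spread from -5.82 to -0.53.

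The 3 oxazolone arrays were unequal in these genes and in the same order. Array 3 was the highest in 43 of 44 members and array 2 the lowest in 43, and 42 had the order 3, 1, 2, as did 9.87% of all genes. The median of the members lay above the control mean by 2.60 on array 1, 1.76 on array 2 and 3.74 on array 3. On array 2, 43 members were still above every control array. The members thus share 1 gradient over these 3 arrays, so their tests are not independent of each other.

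This order was not particular to the members. The mean of 36 further interferon-stimulated genes, described below, also had it (9.25, 8.66 and 10.03 on oxazolone arrays 1, 2 and 3). With smaller steps, so did the means of Jak1, Jak2, Tyk2 and Stat3, of the negative regulators and of the sensor adaptors. Those of the interferon ligands and receptors did not. The mean levels of the natural killer, T cell and skeletal muscle markers had the same order over the oxazolone arrays. Those of the other cell type lists did not. These were neutrophil, monocyte and macrophage, plasmacytoid dendritic cell, B cell, leukocyte, keratinocyte, fibroblast, endothelial and hair follicle markers. Ifng, the gene of interferon gamma, had 4.84, 4.38 and 4.62 on the urushiol arrays, 6.93, 6.98 and 8.07 on the oxazolone arrays and 4.46, 4.80 and 4.46 on the control arrays, with the 2 lower oxazolone arrays nearly equal. The mean level of 6 natural killer markers was 5.27 to 5.49 on the urushiol arrays, 6.38, 5.75 and 6.96 on oxazolone arrays 1, 2 and 3 and 5.36 to 5.39 on the control arrays. With oxazolone 2 of the 6 rose, the granule protease gene Gzma by 4.07 ± 1.04 and the receptor gene Klrk1 by 1.11 ± 0.28. The defining marker Ncr1 stood at 0.13 ± 0.12 (limma adjusted p = 0.509). Singly, Gzma, Klrk1 and Prf1 had the order of the mean over the oxazolone arrays, and Ncr1, Klrb1c and Eomes did not. Gzma had the widest steps of these markers (9.37, 6.76 and 11.55 on oxazolone arrays 1, 2 and 3). The mean of 9 T cell markers was 5.95 to 6.19 with urushiol, 6.93, 6.18 and 7.34 on the oxazolone arrays and 6.06 to 6.08 in control. With oxazolone Icos rose by 2.97 ± 0.54, Cd8a rose by 2.02 ± 0.55 and Cd3e fell by 1.10. With urushiol Cd4 rose by 0.88 ± 0.15, Cd3e fell by 1.87 and Cd3g fell by 1.25, so single T cell markers went both ways behind the mean.

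Skeletal muscle markers were at 11.87 to 12.77 with urushiol, 8.42, 7.13 and 9.66 on the oxazolone arrays and 16.33 to 18.33 in control, and 8 of 8 fell with each allergen. Between the allergens, the 8 muscle markers were all higher with urushiol without overlap (median 4.31). None of the 8 passed by limma, and at an unadjusted p under 0.05 all 8 did. The part of the lymphocyte, natural killer and muscle content in the members' differences was not tested, and in whole skin fewer cells of a type and less RNA per cell cannot be told apart. Leukocyte markers rose with both allergens (3 of 5 with urushiol and 4 of 5 with oxazolone) and so did neutrophil markers (7 of 10 with each), with neutrophil means of 9.32 to 10.04 on the urushiol arrays, up to 9.66 on the oxazolone arrays and 5.89 to 6.24 on the control arrays. Among all genes 9.96% rose and 6.43% fell with urushiol, and 9.63% and 6.92% with oxazolone. Of 6 markers of plasmacytoid dendritic cells, professional makers of type I interferon, 0 rose with either allergen by limma, and 1, Ccr9, was higher with urushiol at an unadjusted p under 0.05 (difference 0.22). Siglech, a defining marker, stood at 0.20 ± 0.14 with urushiol and 0.25 ± 0.14 with oxazolone, and the marker that fell, Cox6a2, is also a muscle gene.

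Upstream of the members are the interferon genes themselves. Of 18 measured, Ifng rose with oxazolone by 2.75 ± 0.31 (limma adjusted p = 0.0028) and Ifna4 by 0.43 ± 0.12 (limma adjusted p = 0.045), and 0 passed with urushiol (1 at an unadjusted p under 0.05). The share of these genes that rose with oxazolone, 11.1%, is close to the 9.63% of all genes. Ifng minus control was 0.04 ± 0.31 with urushiol (limma adjusted p = 0.968), and urushiol minus oxazolone was -2.71 ± 0.31 (limma adjusted p = 0.0767). Ifnb1, the interferon beta gene, had 4.85, 5.17 and 5.01 on the urushiol arrays, 5.22, 4.86 and 4.76 on the oxazolone arrays and 4.59, 4.86 and 4.83 on the control arrays. The groups of Ifnb1 were not separate, at 0.25 ± 0.14 with urushiol and 0.19 ± 0.14 with oxazolone (limma adjusted p = 0.283 and 0.399). Of the 17 type I and type III interferon genes, 10 were below the array median (5.53 to 5.64) on all 9 arrays. That median was taken over all 65956 clusters, with or without a symbol. The share of all genes below it on all 9 arrays was not counted, so the 10 cannot be set against it.

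Among 6 interferon receptor genes, Ifnar2 rose with oxazolone by 0.61 ± 0.16 and Ifngr1 fell by 1.03, at limma adjusted p = 0.0423 and 0.0465. The Ifnar2 call was lost without 8 of the 9 arrays and the Ifngr1 call without 7, at adjusted p up to 0.127 and 0.138 (both without control array 2). With urushiol Ifngr1 stood at -0.71 ± 0.28 and Ifnar2 at 0.34 ± 0.16 without passing, Il10rb, a chain of the type III receptor, rose by 0.62 ± 0.14, and Ifnar1 and Ifngr2 did not pass in either comparison. The kinase gene Jak2 rose with both allergens, by 1.06 ± 0.20 with urushiol and 2.14 ± 0.20 with oxazolone, and Tyk2 fell with both, by 0.39 and 0.34. Of the 8 negative regulators 2 rose with urushiol and 4 with oxazolone. For this and the other lists, the shares of all genes were 9.96% that rose and 6.43% that fell with urushiol, and 9.63% and 6.92% with oxazolone. Samhd1, which depletes nucleotides and restrains viral replication, rose by 2.34 ± 0.40 with urushiol and 4.43 ± 0.40 with oxazolone, and the feedback gene Socs1 stood at 0.17 ± 0.14 with urushiol and rose by 0.59 ± 0.14 with oxazolone, a call lost without 5 arrays (limma adjusted p up to 0.0947, without oxazolone array 2). Of 12 sensor adaptors, kinases and factors 1 rose and 1 fell with urushiol and 4 rose and 1 fell with oxazolone. Myd88, the Toll-like receptor adaptor gene, rose by 1.36 ± 0.18 with urushiol and 1.67 ± 0.18 with oxazolone, Mavs, the adaptor of RNA sensors, fell by 0.95 and 1.29, and Sting1, the adaptor of DNA sensing, stood at 0.76 ± 0.25 with urushiol (limma adjusted p = 0.0835) and rose by 2.54 ± 0.25 with oxazolone. In the fit of all 9 arrays Jak2, Samhd1 and Myd88 rose with urushiol and 0 of the 44 members did. With urushiol and control fitted by themselves 9 members rose, and Jak2, Samhd1 and Myd88 were not followed in that fit.

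Of 36 further interferon-stimulated genes outside the set, 4 rose and 2 fell with urushiol (median 0.17) and 24 rose and 0 fell with oxazolone (median 1.66). The urushiol share that rose, 11.1%, is close to the 9.96% of all genes, of which 6.43% fell. With oxazolone 66.7% of the list rose, against 9.63% of all genes. The 4 that rose with urushiol were Slfn2 (2.11 ± 0.35), Ifitm1 (1.98 ± 0.26), Slfn1 (1.27 ± 0.29) and Plscr1 (0.38 ± 0.09), and Ifi27l2a (-1.42 ± 0.21) and Oas1c (-0.41 ± 0.09) fell. With oxazolone the 4 highest differences were Gm4951 (4.96 ± 0.76), Slfn2 (4.44 ± 0.35), Slfn1 (3.12 ± 0.29) and Phf11b (3.05 ± 0.62). Between the allergens 0 of the 36 passed by limma (32 at an unadjusted p under 0.05, as did 5.88% of all genes). For 32 every urushiol array lay below every oxazolone array, as for 4.39% of all genes.

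**Figure D5:**
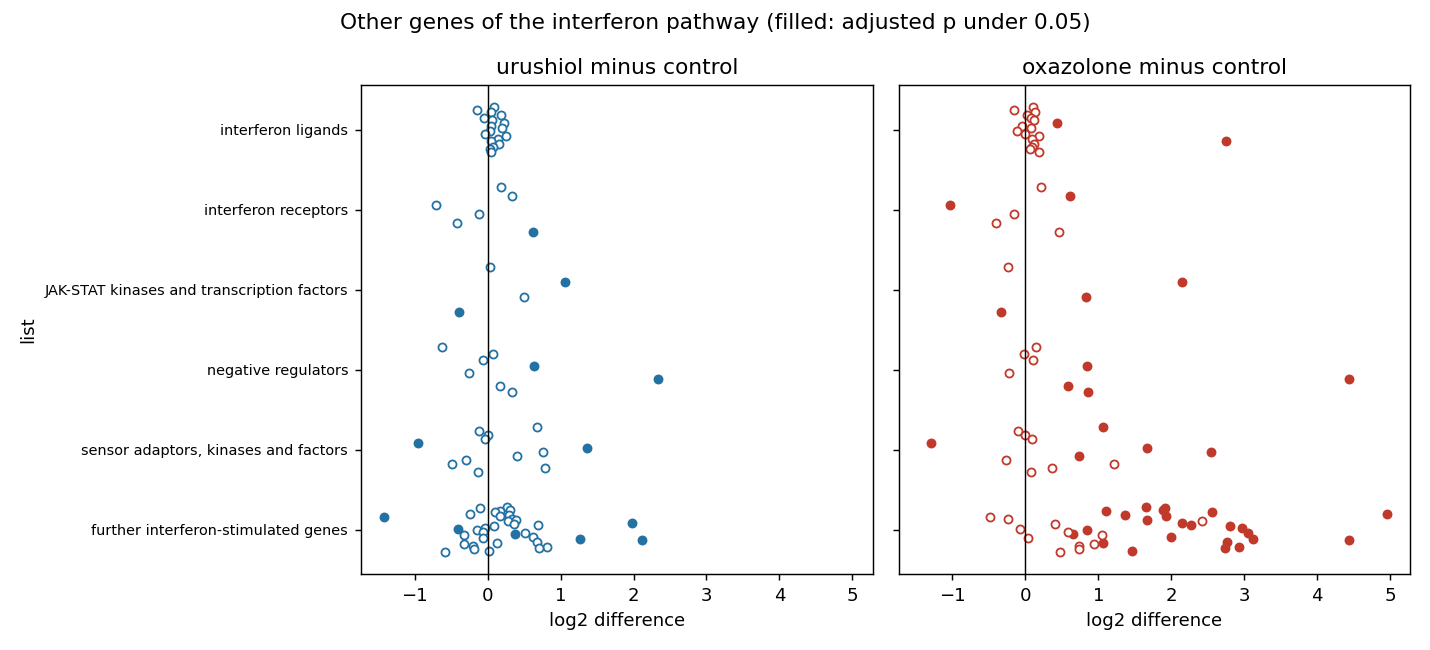
Log2 difference from control of the other genes of the interferon pathway, by list, for urushiol (left) and oxazolone (right), with filled symbols for a limma adjusted p under 0.05. Among the ligands Ifng stands far from 0 with oxazolone (2.75). Of the further interferon-stimulated genes 4 of 36 rose with urushiol and 24 of 36 with oxazolone, against 9.96% and 9.63% of all genes.

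Read beside the sequences printed above, the 15 measured members with an ISRE core in the window had a median difference of 0.33 with urushiol and 2.89 with oxazolone, and the 18 without had 0.09 and 2.22. For the GAS core the medians with oxazolone were 1.57 in 9 members with it and 2.43 in 24 without. The ranges overlap widely (1.08 to 6.66 with an ISRE core and 0.67 to 4.61 without, for oxazolone), and no test was made, since a window of this length covers only part of what controls a gene.

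The call of 27 of the 37 genes that rose with oxazolone held with each array left out in turn, and 10 lost it with at least 1 array out. Isg15 and Sp100 lost it without 8 of the 9 arrays, at limma adjusted p up to 0.141 (without control array 2) and 0.102 (without oxazolone array 1). Ifit3 and Bst2 lost it without 7 and 6 arrays, up to 0.103 and 0.102 (without control array 1). Dhx58 and Oas3 lost it without 3 arrays each, up to 0.0547 (control array 2) and 0.0734 (control array 1). Ifi35, Isg20, Irf8 and Ifitm3 lost it without 2 arrays each, at up to 0.0613, 0.061 (both without control array 1), 0.0681 and 0.0732 (both without control array 2). With the replicate number as a block, Isg15 (0.0567) and Sp100 (0.0674) also missed the threshold.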

How the data were processed

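RNA of 9 neck skin samples was measured on Affymetrix arrays. The deposited values are log2 expression levels, 1 per transcript cluster and array. Per the submitters' processing notes, Affymetrix Expression Console 1.4, RMA and the Transcriptome Analysis Console were used, and their roles are not given in the sources used here. Deposited log2 values ran from 2.20 to 19.93, past the limit of 16 of a 16-bit scanner for reasons not given, so differences may not equal ratios of RNA. Members ran from 4.99 to 15.75.

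Array controls (6732 of 72688 features) were left out. Genes were named where the platform annotation gave 1 symbol (30604 of 65956 clusters, several for 2146, none for 33206), and 827 clusters were renamed through RefSeq GRCm38.p6. All 46 members may be named. Values on all arrays are given for the member with the biggest difference per role, the 6 biggest in all, and Stat2, Irf9, Irf7, Irf1, Isg15 and Usp18. Other pathway genes are Ifnb1, Ifng, the receptors, Socs1 and the 4 biggest per list, or members of short counts. Members, lists and tests were chosen with earlier results of these data known.

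Groups came from sample titles. They were compared with limma 3.58.1 in R 4.3.3 (lmFit, eBayes, two-sided) in 1 fit of 9 arrays, and p-values were adjusted by Benjamini and Hochberg's method over 30142 genes, with the threshold at 0.05. Array medians lay between 5.53 and 5.64, and the number of arrays limits the precision. The code was tested on simulated data. Deviations from group means of same-numbered urushiol and oxazolone arrays correlated at 0.201, 0.197 and 0.124, all above 0.1. Equal numbers were therefore also tried as a block, while the main fit is unpaired, and the labels state no pairs. Same-numbered control arrays 1, 2 and 3 correlated at 0.337, -0.163 and -0.052 with oxazolone arrays and at 0.123, 0.064 and -0.232 with urushiol arrays. Alternatives tried were 2 scalings, averaging a gene's clusters, leaving out dim genes, trended and robust variances, array weights, 2 groups alone, a replicate block, stricter thresholds and leaving out each array. A block in the 6 challenged arrays alone was added after the data were seen.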

Additional observations from a re-analysis of the deposited data

Results flagged for a closer look

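The cluster annotated to both Ifi47, an interferon-induced GTPase of the member set, and Olfr56 was left out because it carries 2 symbols, yet it gave a signal above control. It stood at 5.63, 5.39 and 5.37 on the urushiol arrays, at 6.91, 7.16 and 7.82 on the oxazolone arrays and at 5.25, 5.54 and 5.20 on the control arrays. The oxazolone arrays were above all others, with a difference from control of 1.97 ± 0.23 (n = 3 arrays per group, limma adjusted p = 0.00312). The urushiol difference was 0.13 ± 0.23 (limma adjusted p = 0.751), and urushiol minus oxazolone was -1.83 ± 0.23 (limma adjusted p = 0.0907). Which of the 2 genes gave the signal was not tested.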

How the results depend on the processing

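Of the 44 members, 37 rose with oxazolone against control. The count was 23 with only these 2 groups fitted, 21 at an adjusted p under 0.01, and 28 to 43 with each array left out, and 21 of the 37 calls held in all 20 alternatives. Over all 30142 genes, 1262 rose with only these 2 groups fitted, 672 at an adjusted p under 0.01 and 1102 to 4749 with each array left out. With urushiol against control, 0 rose or fell. After a filter on dim genes or with array weights 1 rose, with only the 2 groups fitted 9 rose and 1 fell, and 0 to 4 rose with each array left out (1 without oxazolone array 2 and 4 without oxazolone array 3). Over all genes, 3656 of 18017 rose after the filter and 4932 of 30142 with array weights. With only the 2 groups fitted 1449 of 30142 rose and 875 fell, and 2192 and 2099 rose without oxazolone array 2 and array 3. For urushiol against oxazolone 0 were lower, but 12 after the dim filter, 4 after quantile renormalisation, 14 with array weights and 0 to 23 with each array left out (23 without oxazolone array 2 and 23 without array 3). Over all genes, 31 of 18017 were lower after the dim filter, and of 30142, 17 after quantile renormalisation and 49 with array weights. Without oxazolone array 2 and array 3, 91 and 56 of 30142 were lower. The replicate block gave 35 for oxazolone against control and 0 in both other comparisons, also in the 6 challenged arrays alone, and apart from Isg15, Sp100 and Ifngr1 (0.0633) it ended no call among the 51 genes followed. With this block over 9 arrays, 3088 of all 30142 genes rose with oxazolone. With urushiol 3267 rose and 1852 fell, and between the allergens 0 passed. The sign of some small differences that did not pass changed. For urushiol against control, Ifng stood at -0.02 after quantile renormalisation, -0.01 after median centring, -0.004 with array weights and -0.07 to 0.16 with each array left out (below 0 without control array 1 or 3 or urushiol array 1), Ifngr2 at -0.30 to 0.02 (above 0 without urushiol array 2) and Irf9 at -0.07 to 0.18 (below 0 without control array 1). For urushiol against oxazolone, Ifnar1 stood at -0.10 to 0.07 with each array left out (above 0 without urushiol array 1 or oxazolone array 1), Ifnb1 at -0.03 to 0.20 (below 0 without urushiol array 2 or oxazolone array 3) and Ifngr2 at -0.08 to 0.17 (below 0 without urushiol array 1 or 3 or oxazolone array 2). No member changed sign in oxazolone against control, where over 51 named genes 883 of 1018 values kept their side of the threshold, 119 lost the call and 16 gained it. Quantile renormalisation turned the split of all calls against control, higher to lower, to 2124 and 2479 with urushiol (3003 and 1939 before) and 2098 and 2828 with oxazolone (2904 and 2085 before). The cause was not tested. Calls of pathway genes other than the ligands Ifng and Ifnb1, the Ifnar and Ifngr receptors and Socs1 were not followed through these alternatives. All comparisons rest on 3 arrays per group.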
